A study of Mus musculus with 6 samples.

Results

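Growth hormone signalling in the liver was followed through 10 genes, from the growth hormone receptor to its secreted products, feedback inhibitors and sex-biased targets. The members were all 25 probe sets, of 45101 on the array, whose platform annotation gives exactly 1 of the symbols Ghr, Stat5a, Stat5b, Igf1, Igfals, Socs2, Cish, Bcl6, Hsd3b5 and Cux2. A probe set is a group of short probes that together give 1 signal for a transcript. Liver RNA was measured on 6 Affymetrix arrays, 3 of C57BL/6 mice on chow (Labdiet 5008), a standard grain-based diet, and 3 of C57BL/6 mice on a ketogenic diet (F3666), which is very rich in fat and very poor in carbohydrate. At 8 weeks of age the mice were placed on their diet, which they ate for 6 weeks, and had food freely available until the livers were taken in the morning. The labels name no mutation, transgene or drug, and they do not give the sex. RNA of 2 to 3 animals per diet was used, and the sources used here do not say whether an array held 1 animal or a pool, so every p-value reflects no more than array-to-array spread, which may be technical. Replicates are numbered 1 to 3 in order of deposition within each diet and are not paired between diets.

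Growth hormone is released by the pituitary in pulses and binds its receptor, encoded by Ghr, on hepatocytes. The receptor activates the kinase JAK2, which phosphorylates STAT5A and STAT5B, and these enter the nucleus and switch on genes such as Igf1, Socs2 and Cish. In rodents the pulses are sharper in males than in females, and STAT5B relays this difference to genes such as the male-specific Hsd3b5, while the repressor CUX2 is a female-biased regulator and BCL6 a male-biased repressor that binds many STAT5 sites. The liver is the main source of circulating IGF-1, which it releases into a complex with IGF-binding proteins and the acid-labile subunit encoded by Igfals.

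On the ketogenic diet the transcript of Hsd3b5 fell to or below the background of the array. The signals of Ghr, Igf1 and Igfals were lower, without passing the test across all probe sets, and the main probe sets of Socs2 and 1 of 2 probe sets of Stat5a were higher, also without passing it. Of these probe sets, Ghr 1451871_a_at, Igf1 1419519_at and Socs2 1418507_s_at overlapped between the diets. Cish and Bcl6 overlapped on all their probe sets, and Cux2 was near or below background on all arrays. Of the 25 member probe sets 19, of 9 genes, passed a filter on low signal. In limma's test 2 of these changed, beside 4.64% of all probe sets; 2 fell and 0 rose, namely Hsd3b5 and a dim probe set of Socs2. Over all 22515 probe sets tested, 0.564% fell and 4.08% rose. At an unadjusted p under 0.05 in limma, 5 member probe sets were lower and 2 higher, beside 3.86% and 16.2% of all probe sets. The diets did not overlap for 8 member probe sets that were lower and for 2 that were higher, beside 5.06% and 21.6% of all probe sets. The median log2 change of the 19 was -0.42, and that of all probe sets tested 0.22. Because members with a high signal on either diet pass the filter more easily, these counts describe the 19 and not all 25. Repeat probe sets of a gene on the same arrays are counted separately, and of the 8, 3 read Igf1 and 2 read Ghr. The same holds for the median, and the members were chosen with earlier results of these data known.

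**Figure D1:**
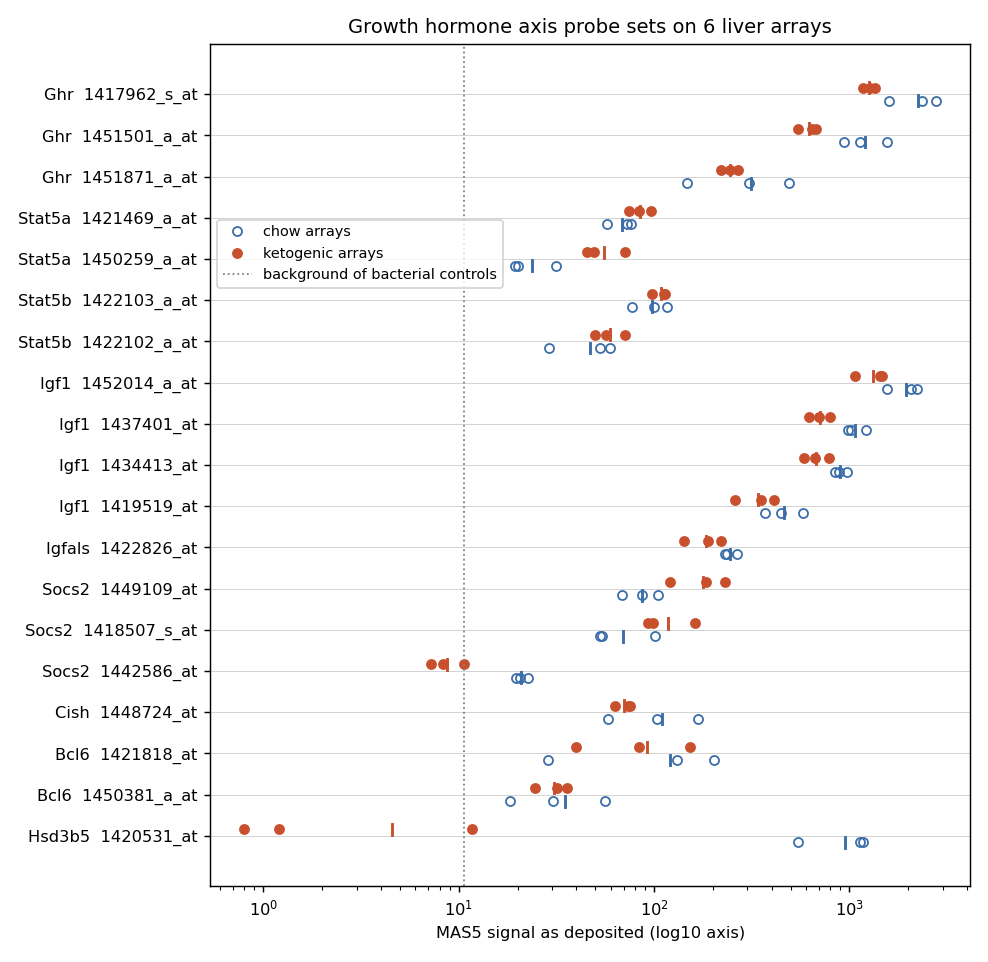
Signal (MAS5 as deposited, log10 axis) of the 19 member probe sets that passed the filter, on each of 3 chow (open circles) and 3 ketogenic (filled circles) arrays. Vertical ticks mark the mean of a diet, and the dotted line marks the background of 10.7. Hsd3b5 lies between 543.7 and 1178.1 on chow and between 0.8 and 11.7 on the ketogenic arrays.

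Overall brightness varied from array to array. A mean signal that leaves out the outer 2% ranged from 39.9 to 53.5 on chow and from 45.8 to 61.0 on ketogenic arrays. Scaling to a common array median, to a common trimmed mean, by quantiles or to the hybridization controls (labelled RNA spiked into every hybridization) moved the median log2 change of all probe sets by -0.11, -0.21, -0.23 and 0.36. The geometric mean of these controls was 633.2 to 650.3 on chow and 478.3 to 511.2 on ketogenic arrays, and the ratio of 3' to 5' actin signal, a sign of RNA integrity, was 2.00 to 2.20 and 1.49 to 1.64. Both differences run with the diet, and their part in the results was not tested beyond the scalings. Of 10 measured hepatocyte markers 0 passed the test, with a median log2 change of -0.09, and their summed signal was 47790 to 51210 on chow and 42100 to 47950 on ketogenic arrays. Of 20 measured macrophage markers 17 rose, beside 4.74% of 11866 genes, and their summed signal went from between 1710 and 2111 on chow to between 6614 and 8754. Their Itgam and Trem2 did not pass the filter on low signal. The macrophage count was 15 to 18 over the scalings, 11 of 19 without ketogenic array 2 and 5 of 22 with no filter. Of 14 stellate cell markers 10 rose, from a summed signal of 1453 to 1852 to one of 4354 to 6269, and Des did not pass the filter. The stellate count was 4 with quantile normalization, 5 with a common trimmed mean, 6 without ketogenic array 1, 5 without ketogenic array 3 and 1 with no filter on low signal. Beside the same share of all genes, 3 of 6 neutrophil markers rose, and the other 3 had a negative log2 change. Of 11 endothelial markers 1 rose, of 5 T and B lymphocyte markers 0 and of 3 cholangiocyte markers 0. The neutrophil count was 0 of 3 without any 1 ketogenic array. The endothelial count was 6 when scaled to the hybridization controls and 0 with no filter. It was also 0 without chow array 2, chow array 3 or any 1 ketogenic array, and 2 without chow array 1. In whole liver, fewer cells of a type and less RNA per cell cannot be told apart. The Y-linked transcript Eif2s3y had signals of 60.5 to 133.8, Kdm5d of 19.1 to 40.3 and Uty of 20.5 to 31.3 on their brightest probe sets, all above background on all 6 arrays. Their other probe sets reached at most 7.3 for Eif2s3y, 14.9 for Kdm5d and 34.9 for Uty. For Xist, expressed in females, the brightest probe set had signals of 9.5 to 26.8, and its 2 others stayed at or below 6.0. The summed signal of these 4 genes was 149.0 to 227.6 on chow and 109.6 to 154.3 on ketogenic arrays. Their median log2 change was -0.44, all 4 were negative and 0 passed the test in limma, also at an unadjusted p under 0.05, while 1 was called lower with quantile normalization. Their part in the values of the sex-biased genes was not tested.

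To show whether a STAT5 motif lies in front of the members, the 250 bases before the start of transcription were read from RefSeq (GRCm38.p6) and searched on both strands for TTCNNNGAA, the palindromic consensus that STAT5 binds and that BCL6 sites resemble. Windows were matched for 9 of the 10 members, 16 windows in all, and Socs2 was not matched. The motif was present in 4 of the 16 windows, which belong to 2 of the 9 genes, Igfals and Bcl6. Of all 32851 windows of the same length 7.02% held it. Several windows of a gene are counted separately, and no share over all genes is given. These values therefore do not show whether the members carry the motif more often than other genes. The sequences below are a window of each of these 2 genes and that of Hsd3b5, with the motif in capitals. The Igfals window (chr17:24877981-24878230, plus strand) holds TTCCTAGAA, which begins 58 bases before the start. The Bcl6 window (chr16:23981284-23981533, minus strand) holds TTCCTGGAA, TTCTGTGAA and TTCCGGGAA, 168, 122 and 88 bases before it. Hsd3b5 (chr3:98645535-98645784, minus strand) is shown as the member with the largest change, and these letters are not in its window. A match is a description of the letters and not a measured binding site. Bases further upstream and within the genes were not searched, so a window without the motif says nothing about sites elsewhere.
Igfals: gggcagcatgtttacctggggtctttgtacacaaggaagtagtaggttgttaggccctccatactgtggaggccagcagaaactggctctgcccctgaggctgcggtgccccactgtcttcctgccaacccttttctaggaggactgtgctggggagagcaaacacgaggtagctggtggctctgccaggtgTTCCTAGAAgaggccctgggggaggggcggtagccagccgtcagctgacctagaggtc
Bcl6: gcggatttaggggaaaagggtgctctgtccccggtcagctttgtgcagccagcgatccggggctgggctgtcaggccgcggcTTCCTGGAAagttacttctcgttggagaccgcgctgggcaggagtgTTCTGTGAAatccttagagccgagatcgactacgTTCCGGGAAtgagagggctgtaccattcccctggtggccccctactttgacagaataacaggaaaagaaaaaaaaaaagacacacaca
Hsd3b5: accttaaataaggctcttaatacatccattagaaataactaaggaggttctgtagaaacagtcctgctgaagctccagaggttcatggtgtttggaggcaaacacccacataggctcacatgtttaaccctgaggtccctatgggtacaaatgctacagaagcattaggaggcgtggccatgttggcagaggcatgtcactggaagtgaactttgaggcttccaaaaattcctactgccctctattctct

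Ghr, which encodes the receptor itself, was measured by 3 probe sets. On the brightest, 1417962_s_at, the signals were 2343.3, 1592.2 and 2771.8 on chow and 1170.5, 1356.7 and 1271.6 on ketogenic arrays. All ketogenic arrays lay below all chow arrays. The mean was 2236 ± 597.1 on chow and 1266 ± 93.2 on the ketogenic diet (SD, n = 3), which is -0.79 ± 0.28 on the log2 scale (SE; limma adjusted p = 0.163). The probe set 1451501_a_at gave 1550.5, 1137.1 and 933.9 on chow and 643.2, 670.7 and 545.9 on ketogenic arrays, again without overlap. Its log2 change was -0.94 ± 0.28 (SE), with adjusted p = 0.0991 in limma. This probe set passed the threshold of 0.05 with a common array median (0.0252), quantile normalization (0.03) and a common trimmed mean (0.0198), but not when scaled to the hybridization controls (0.12). The third and dimmest, 1451871_a_at, overlapped between the diets, with 489.5, 306.1 and 146.9 on chow and 244.6, 269.5 and 218.9 on ketogenic arrays and a log2 change of -0.20 ± 0.41 (SE). The platform annotation does not say which splice form of the receptor each probe set reads.

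No probe set of the signal transducers passed the test. Stat5b, the form that carries most of the growth hormone signal in liver, had signals of 116.5, 77.5 and 99.4 on chow and 114.3, 112.1 and 97.4 on ketogenic arrays on its brighter probe set, 1422103_a_at. The diets overlapped, and the log2 change was 0.16 ± 0.26 (SE), with adjusted p = 0.768 in limma. Quantile normalization and a common trimmed mean turned its sign, to -0.15 and -0.05. Its other probe set, 1422102_a_at, also overlapped, with a log2 change of 0.38 ± 0.33 (SE). Stat5a, its close relative on the same chromosome, overlapped on the probe set 1421469_a_at, with a log2 change of 0.31 ± 0.25 (SE). The probe set 1450259_a_at of Stat5a was higher on each ketogenic array, with signals of 31.5, 19.5 and 20 on chow and 45.5, 71.4 and 49.1 on the ketogenic diet. Its log2 change was 1.23 ± 0.30 (SE), with adjusted p = 0.0582 in limma, and it passed the threshold under 8 of 15 alternatives. The macrophage markers rose on the same arrays, and leukocytes also express Stat5a, but the part of these cells in its signal was not tested.

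Igf1, the hormone through which much of the growth effect of growth hormone runs, was measured by 4 probe sets, all lower on the ketogenic diet and 3 without overlap. On the brightest, 1452014_a_at, the signals were 2226.1, 2065.9 and 1556.3 on chow and 1465.0, 1432.5 and 1064.1 on ketogenic arrays. The lowest chow array lay just above the highest ketogenic array. The mean went from 1949 ± 349.8 to 1321 ± 222.7 (SD, n = 3), which is -0.56 ± 0.27 on the log2 scale (SE; limma adjusted p = 0.291). For 1437401_at the signals were 1212.2, 1024.3 and 982.3 on chow and 701.9, 792.2 and 623.6 on ketogenic arrays, with a log2 change of -0.60 ± 0.24 (SE) and adjusted p = 0.212. The other probe sets, 1434413_at and 1419519_at, had log2 changes of -0.42 ± 0.24 and -0.45 ± 0.29 (SE), and only the latter overlapped. The probe set 1437401_at passed the threshold with a common array median (0.0403), quantile normalization (0.0494) and a common trimmed mean (0.0325), and 1452014_a_at with the last of these (0.0407). Scaled to the hybridization controls, the 4 log2 changes were between -0.24 and -0.06. When 2-fold changes were simulated for these arrays the test recovered 3.4% of them, and when 4-fold changes were, 61.4%. Simulated noise was not tied to signal, and 200 of 22515 probe sets were changed, where 1045 were called in the data. The cut-off on the unadjusted p depends on the number called, so these shares do not measure the power for Igf1.

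Igfals, the acid-labile subunit that keeps IGF-1 in the blood, had 1 probe set. Its signals were 266.8, 235.9 and 231.6 on chow and 188.2, 219.9 and 142.0 on ketogenic arrays, which did not overlap. The log2 change was -0.44 ± 0.26 (SE), with adjusted p = 0.393 in limma, and it did not pass the threshold under any of 18 alternatives. Scaled to the hybridization controls, the log2 change of Igfals was -0.07. Among 10 measured genes of IGF binding and its receptors 2 rose and 0 fell, beside 4.74% and 0.615% of all genes, and the median log2 change was 0.62, where that of all genes was 0.23. The count that rose was 4 when scaled to the hybridization controls and 1 with no filter or without ketogenic array 3. Igfbp1, a binding protein that insulin normally holds down, had signals of 314.3, 463.4 and 374.8 on chow and 1582.2, 1963.4 and 1729.0 on ketogenic arrays. It rose by 2.21 ± 0.26 (log2, SE), with adjusted p = 0.00437 in limma. Igfbp7, a binding protein also made by non-parenchymal cells, rose by 1.51 ± 0.24 (log2, SE), which did not pass when ketogenic array 3 or the filter on low signal was dropped. Stellate and macrophage markers rose on the same arrays, and their part in Igfbp7 was not tested. Igfbp2 had a log2 change of 0.41 and the receptor gene Igf2r one of 0.82, neither past the threshold.

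**Figure D2:**
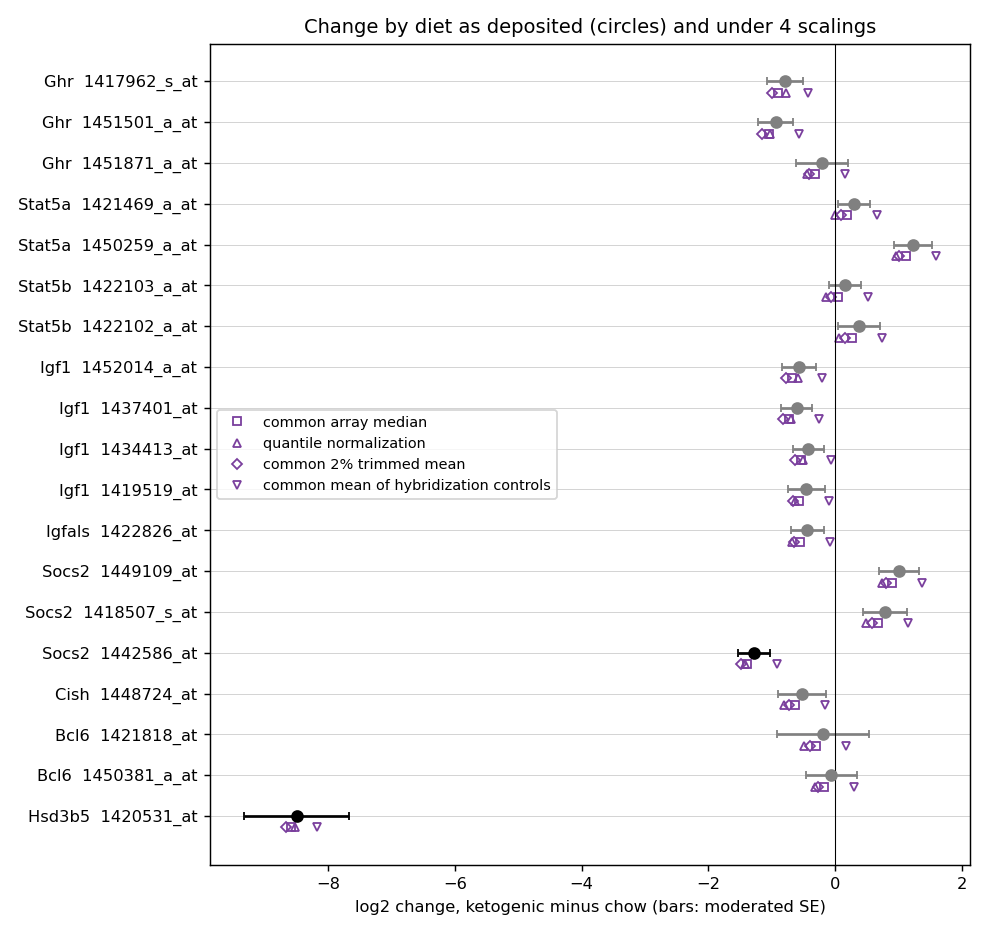
Log2 change, ketogenic minus chow, of the 19 member probe sets as deposited (circles, with the moderated SE as bars, black where the adjusted p is under 0.05) and under 4 other scalings (open symbols). Hsd3b5 stands at -8.49 and the other probe sets lie between -1.28 and 1.23. Quantile normalization moves the probe sets by unequal amounts, for example Cish to -0.81 from -0.51 and Ghr 1417962_s_at to -0.78 from -0.79.

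Socs2 and Cish both encode SOCS-box proteins that STAT5 switches on and that then damp the signal of the receptor. Socs2 had 6 probe sets, of which the 2 built on RefSeq transcripts were the brightest and were higher on the ketogenic diet. On 1449109_at the signals were 86.4, 104.4 and 68.8 on chow and 120.0, 231.3 and 184.6 on ketogenic arrays, without overlap. The mean went from 86.5 ± 17.8 to 178.6 ± 55.9 (SD, n = 3), which is 1.02 ± 0.32 on the log2 scale (SE; limma adjusted p = 0.116), and it passed the threshold under 4 of 18 alternatives. On 1418507_s_at the chow signals of 54.1, 101.3 and 52.9 overlapped with the ketogenic signals of 93.5, 162.8 and 98.8, and the log2 change was 0.79 ± 0.35 (SE). The dim probe set 1442586_at went the other way, with 22.5, 19.7 and 20.5 on chow and 7.2, 8.3 and 10.7 on ketogenic arrays. It fell at least 1.96-fold, with adjusted p = 0.0286 in limma, since its ketogenic mean lay under the background. That call was lost under 9 of 16 alternatives, among them when any 1 array was left out (adjusted p from 0.0529 up to 0.127). It is not built on a RefSeq transcript, and what part of the gene it reads is not given in the annotation used here. The other 3 probe sets of Socs2 did not pass the filter on low signal, and their highest signal was 20.8.

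Cish had signals of 58.1, 168.1 and 103.5 on chow and 63.2, 73.3 and 75.2 on ketogenic arrays. The chow arrays spanned the ketogenic ones, and the log2 change was -0.51 ± 0.38 (SE), with adjusted p = 0.491 in limma. The spread of chow was 55.3 and that of the ketogenic arrays 6.45 (SD, n = 3).

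Bcl6 encodes a repressor that STAT5 in turn represses. On 1421818_at its signals were 203.2, 28.5 and 130.5 on chow and 153.0, 40.0 and 84.1 on ketogenic arrays. The diets overlapped fully, with a log2 change of -0.18 ± 0.73 (SE), and on 1450381_a_at with one of -0.06 ± 0.41 (SE). The arrays of a diet differed more among themselves than the diets did. Chow array 2 had the lowest Bcl6 of its diet on both probe sets, the highest Cish, the highest Socs2 on both bright probe sets and the lowest Hsd3b5. Ketogenic array 2 had the highest Socs2 of its diet on both and the lowest Bcl6 on 1421818_at, but not on 1450381_a_at. It had the highest Hsd3b5 of its diet and not the highest Cish, unlike chow array 2. These are descriptions of single arrays, and the pattern was seen in the values and not tested.

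**Figure D3:**
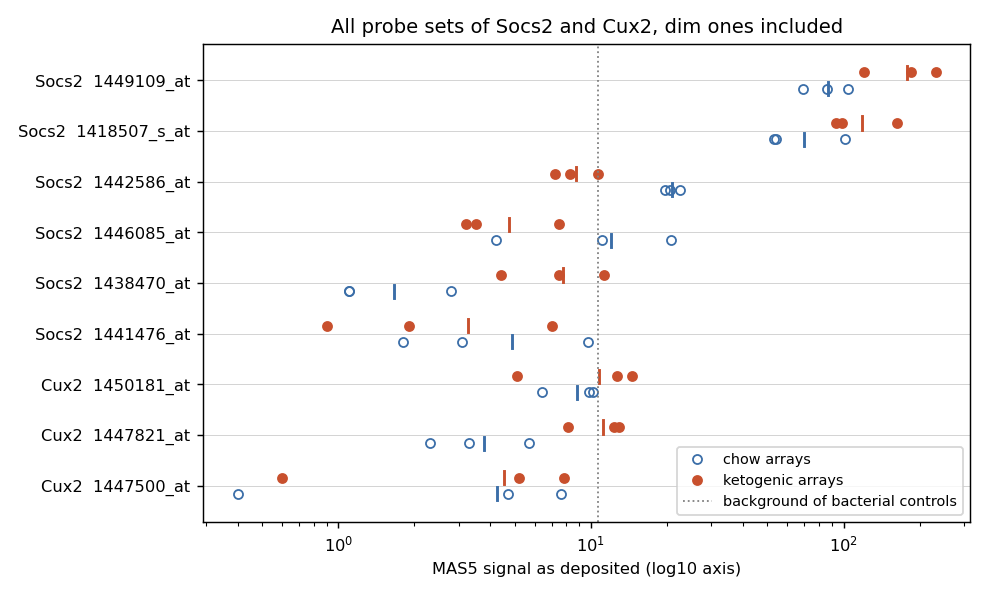
Signal (MAS5 as deposited, log10 axis) of all 6 probe sets of Socs2 and all 3 of Cux2 on 3 chow (open) and 3 ketogenic (filled) arrays, with the mean of each diet as a tick and the background of 10.7 as a dotted line. The upper 2 probe sets of Socs2 are higher and the third is lower on the ketogenic diet. The Cux2 signals do not exceed 14.5.

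Hsd3b5, a male-specific steroid dehydrogenase of the liver, showed the largest change among the members. Its signals were 1128.4, 543.7 and 1178.1 on chow and 0.8, 11.7 and 1.2 on ketogenic arrays. All chow arrays were far above all ketogenic arrays, of which 2 lay under the background of 10.7. It fell at least 81.6-fold when ketogenic signals are raised to that background, with adjusted p = 0.00195 in limma, and the fitted log2 change of -8.49 ± 0.83 (SE) depends on the floor. The call held under all 18 alternatives run, with a log2 change from -9.61 to -5.52 and an adjusted p up to 0.0481. The gene lies in a family of close relatives whose transcripts can cross-hybridize, which was not tested. Relatives with a symbol of their own were looked up after these values were known. The 2 probe sets of the family annotated with several symbols are not described here. Hsd3b1 did not pass the filter on low signal, and its highest signal was 3.3. For Hsd3b2 the log2 change was -1.37 (adjusted p = 0.0612) and for the probe sets of Hsd3b3 it was -1.10 and -1.42 (0.0791 and 0.0566), without overlap between the diets, and for Hsd3b7, of bile acid synthesis, it was -0.21.

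Cux2, the female-biased regulator, was too dim for the test on all 3 probe sets. On 1447821_at the signals were 2.3, 5.7 and 3.3 on chow and 12.4, 12.9 and 8.1 on ketogenic arrays. These did not overlap, but all chow and 1 of the 3 ketogenic signals lay under the background, so that the difference is at least 1.12-fold. On 1450181_at the signals were 6.4, 10.2 and 9.8 on chow and 12.7, 14.5 and 5.1 on ketogenic arrays, and the diets overlapped. On 1447500_at all 6 signals were at or below 7.8.

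Further sex-biased liver genes, taken from a list that was drawn up with earlier results of these arrays known, were compared in the same fit. Of 20 measured male-biased genes 8 fell and 0 rose, beside 0.615% and 4.74% of all genes, and the log2 change was negative for all 20, its median being -1.17 where that of all genes was 0.23. Slco1a1, an organic anion transporter, had signals of 1009.1, 604.8 and 804.2 on chow and 209.7, 182.9 and 172.3 on ketogenic arrays and fell by 2.07 ± 0.27 (log2, SE), with adjusted p = 0.00715 in limma. C8b, a complement component, fell by 1.98, Elovl3, a fatty acid elongase, fell by 1.73 and Susd4 fell by 2.83, on the log2 scale. The call of Elovl3 was lost without ketogenic array 1 and that of Susd4 without ketogenic array 3. Over the scalings 8 to 10 of the list fell, with no filter on low signal 0 fell, and 4 fell without chow array 1, chow array 3, ketogenic array 2 or ketogenic array 3.

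Of 23 measured female-biased genes 6 rose and 2 fell, beside 4.74% and 0.615% of all genes, with a median log2 change of 0.65. When scaled to the hybridization controls 10 rose and 2 fell, and with no filter on low signal 2 rose and 0 fell. Cyp2b9, a cytochrome P450 that is low in adult male liver, had signals of 17.4, 14.7 and 5.4 on chow and 561.5, 852.4 and 419.7 on ketogenic arrays. It rose by 5.72 ± 0.47 (log2, SE), with adjusted p = 0.00132 in limma. Vldlr, a lipoprotein receptor, rose by 2.97 and Cd36, a fatty acid transporter, by 2.77 on the log2 scale, and Cyp2b13 rose at least 6.05-fold. Macrophages also express Cd36 and their markers rose on the same arrays, but their part in its signal was not tested. Lifr, a cytokine receptor, and Hamp2, a hepcidin gene, fell by 1.76 and 1.51, and both calls were lost without chow array 3 and without each ketogenic array in turn. The same happened to Hamp2 without chow arrays 1 and 2. The other probe sets of Lifr had log2 changes of 0.20 and 0.01.

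**Figure D4:**
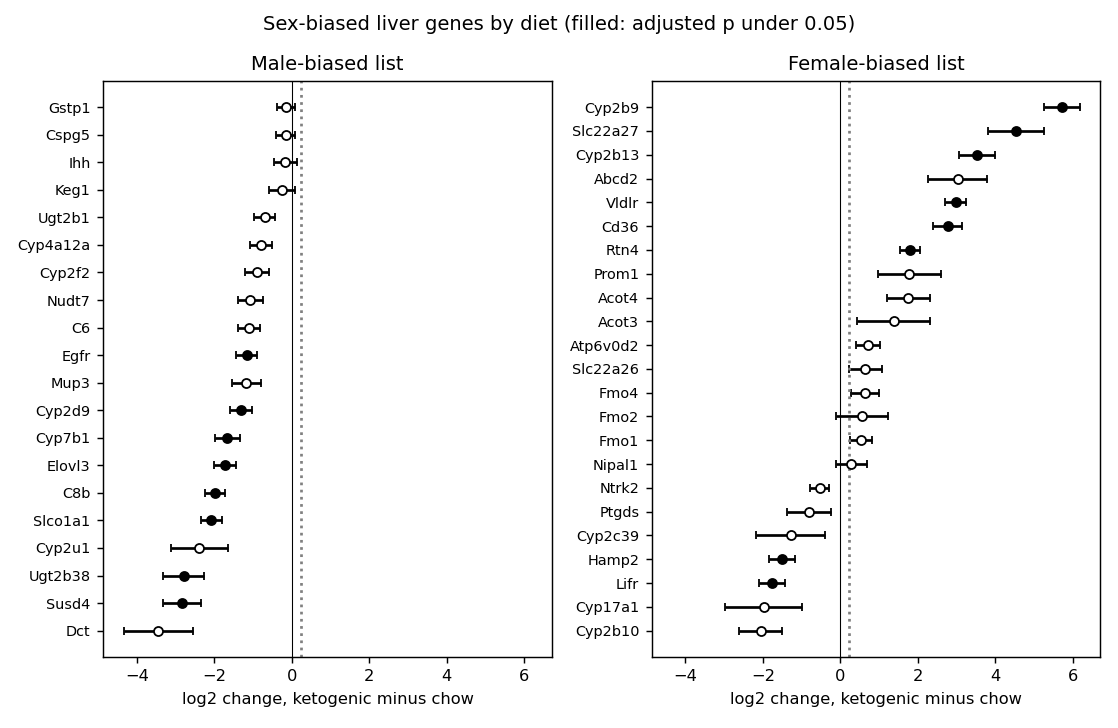
Log2 change, ketogenic minus chow, with the moderated SE, of 20 male-biased (left) and 23 female-biased (right) genes on their brightest probe sets. Filled circles have an adjusted p under 0.05, and the dotted line is the median of all genes, 0.23. All male-biased genes lie below 0, while 16 female-biased genes lie above it.

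Of 20 measured partners and brakes of receptor signalling 2 rose and 0 fell, beside 4.74% and 0.615% of all genes, with a median log2 change of 0.34. The count that rose was 7 when scaled to the hybridization controls, where 4985 of all probe sets rose, 2 under each other scaling, 1 when any 1 array was left out and 0 with no filter. Sirpa, a receptor of the macrophage surface that binds phosphatases, rose by 2.12 ± 0.26 (log2, SE), with adjusted p = 0.00548 in limma, beside the rise of the macrophage markers, whose part was not tested. Adam17, the protease that sheds the extracellular part of the receptor, rose by 1.07 ± 0.25 (log2, SE), with adjusted p = 0.0485, a call lost when any 1 array was left out. On the remaining probe sets of Adam17 the log2 change was 1.0 and 0.52, not past the threshold. The kinase gene Jak2 had a log2 change of 0.30 ± 0.27 (SE) on its brightest probe set, which overlapped between the diets, and one of 0.97 on the other (adjusted p = 0.0905), which did not overlap. Socs3, an inhibitor that cytokines induce, had a log2 change of -0.13 and Stat3 one of 0.29 on their brightest probe sets, and Socs1 did not pass the filter on low signal. Of 10 measured transcription factors that act beside STAT5, 0 passed the test in limma, and Cebpa, the brightest, had a log2 change of -0.06.

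Fgf21, a hepatic hormone known to blunt growth hormone signalling in mouse liver when given in excess, had signals of 37.2, 25.3 and 11.2 on chow and 382.8, 486.0 and 575.0 on ketogenic arrays. It rose by 4.44 ± 0.43 (log2, SE), with adjusted p = 0.00188 in limma, and its receptor genes and Klb did not pass the test. Its part in the members' values was not tested. Among acute phase genes and targets of STAT3, 2 of 20 rose and 1 fell, beside 4.74% and 0.615% of all genes. The count that rose was 0 with a common trimmed mean, 6 when scaled to the hybridization controls and 0 with no filter. It was 1 without chow array 1 or chow array 3 and 0 without any 1 of the ketogenic arrays. Saa1 rose by 1.31, Lcn2 rose at least 10.9-fold and Orm1 fell by 1.83, on the log2 scale for the first and the last. The calls of Saa1 and Lcn2 were each lost without chow array 1 and without each ketogenic array in turn, that of Saa1 also without chow array 3, and that of Orm1 without ketogenic array 3. With quantile normalization and a common trimmed mean the calls of Saa1 and Lcn2 were also lost, and that of Lcn2 with a common array median.

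Likeness to a member was measured as the distance between log2 signals over the 6 arrays, each centred on its own mean. Nearest to Hsd3b5 were Scd1, a fatty acid desaturase, at 3.58, Nnmt, a nicotinamide methyltransferase, at 5.22 and Thrsp, a lipogenic regulator, at 6.26. These distances are large, so the 3 genes are other large falls rather than close matches. Their log2 changes were -6.02, -5.03 and -3.44, and the Hsd3b5 profile depends on ketogenic signals near or below the background. Nearest to the brightest probe set of Igf1 were Dnase2b at 0.13, Slc16a10, an aromatic amino acid transporter, at 0.14 and Aldh6a1, of valine breakdown, at 0.14. Nearest to that of Socs2 were Hk3, a hexokinase of leukocytes, at 0.35, Srd5a3 at 0.36 and Get3 at 0.36. With 6 arrays in 2 groups, many genes come close to a small change, so these names describe the arrays only.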

How the data were processed

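Signals of 6 arrays were deposited by the authors as linear intensity, which the submitters' processing notes credit to GCOS with MAS5, with neither a version nor a scaling target given in the sources used here. Members and gene lists were chosen with earlier results of these data known. All 3 chow and 3 ketogenic arrays entered 1 fit. Signals below 1.1, the 10th percentile of all values, were set to it before log2 was taken. After removal of 64 control probe sets, 22515 remained whose average on the log2 scale reached the median, 3.35. The diet effect was tested two-sided in limma (3.58.1, R 4.3.3; lmFit, then eBayes), and p was adjusted by Benjamini and Hochberg's method across the 22515, with a threshold of 0.05. Changes are ketogenic minus chow with the moderated standard error. For lists, each gene was represented by its brightest kept probe set. The background of 10.7 is the geometric mean, over the 6 arrays, of the 95th percentile among 27 bacterial controls. Where 1 diet's mean lay under it, signals were raised to it, the fold was taken from arithmetic and from geometric means, and the lower is given as a bound. Gene symbols came from the platform annotation (34958 probe sets with 1 symbol, 932 with several, 9211 with none). The array build is not given, so only RefSeq promoter windows carry coordinates. From each list up to 4 changed genes with the smallest adjusted p were named, or the brightest where none changed, besides Jak2, Socs1, Socs3, Stat3, Igfbp1, Igfbp2, Fgf21 and sex-linked genes. Igf2r, Igfbp7, Klb and the Hsd3b relatives and second probe sets were added for context. The fit was tested on simulated data for these 22515 probe sets in 20 draws of 200 changed ones, where 4.2% of calls were false. Precision is limited by the number of arrays, which have no read depth. Alternatives changed the scaling, floor, filter, prior, probe sets, unit of test and arrays.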

Additional observations from a re-analysis of the deposited data

How the results depend on the processing

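Over 18 alternatives the member probe sets kept their direction and their side of the threshold in 272 of 319 comparisons, with 26 newly past the threshold, 9 no longer past it and 12 of the opposite sign. Hsd3b5 passed in all 18. The cause of the changes below was not tested. As deposited, 1045 probe sets changed, 918 higher and 127 lower, and 2 member probe sets changed, 0 higher and 2 lower. With a common array median 312 were lower, and 5 members changed (1 higher, 4 lower). With quantile normalization 354 were lower, and 4 members changed, all 4 lower. With a common trimmed mean 403 were lower, and 6 members changed (1 higher, 5 lower). Scaled to the hybridization controls 5113 changed, 4985 of them higher, and 5 members changed, 3 higher. The share of higher calls was 87.8% as deposited and 77.4%, 64.6%, 66.2% and 97.5% under these scalings. With log2(signal + 1) 1 member was higher. With log2(signal + 16) 2235 changed (1867 higher, 368 lower), and 5 members changed, 2 higher. With a floor at the background 1917 changed (1628 higher, 289 lower), and 1 member was higher. With no filter 178 changed (140 higher, 38 lower), and 1 member changed, 1 lower. With a 75th percentile filter 269 were lower, and 4 members changed, 1 higher. With a trended and robust prior 1872 changed (1578 higher, 294 lower), and 5 members changed, 2 higher. With 1 probe set per gene 1 member changed, 1 lower. Leaving out those that may bind several transcripts, 622 changed, 536 higher. Leaving out each array in turn gave 310 to 1037 changed probe sets (272 to 974 higher, 38 to 118 lower; the lowest of each without ketogenic array 3) and 1 to 2 members changed (0 to 1 higher, 1 to 1 lower). The sign turned for Ghr 1451871_a_at scaled to the hybridization controls and without chow array 1 (0.16 and 0.20), for Stat5a 1421469_a_at with quantile normalization (-0.0044), for Stat5b 1422103_a_at with quantile normalization and a common trimmed mean (-0.15 and -0.054), for Bcl6 1450381_a_at scaled to the controls, without chow array 1 and without ketogenic array 3 (0.31, 0.36 and 0.10) and for Bcl6 1421818_at scaled to the controls and without chow arrays 1 and 3 and ketogenic array 2 (0.18, 0.39, 0.07 and 0.32). Leaving out each array in turn, these last ran from -0.67 to 0.20 for Ghr 1451871_a_at, -0.45 to 0.36 for Bcl6 1450381_a_at and -1.02 to 0.39 for Bcl6 1421818_at. No paired analysis was possible because the labels give the arrays no shared replicate numbers. Signal under the background limits Cux2, Hsd3b5 on the ketogenic diet and the dim probe sets of Socs2.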
